A study of Mus musculus with 2 samples.

Results

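The 8 leukocyte chemokine receptor genes Ccr1, Ccr2, Ccr8, Ccr9, Cxcr3, Cxcr4, Cxcr6 and Cx3cr1, were followed through the leukocytes of AT3 mammary tumors in mice with and without Pgd in the myeloid lineage. They were taken by symbol, 8 of the 32285 genes in the count tables, with no threshold on their values. The study asked how loss of 6-phosphogluconate dehydrogenase (6PGD, encoded by Pgd), an enzyme of the pentose phosphate pathway, changes the leukocytes in tumors. Sorted tumor leukocytes were profiled by single-cell RNA-seq in 2 libraries. The library WT came from Pgd fl/fl mice, whose Pgd gene carries sites for Cre recombinase but is intact, and 6PGDKO came from Pgd fl/fl LysMCre mice, in which Cre is expressed from the myeloid gene Lyz2. Both groups received 500000 cells of AT3, a mouse breast cancer line, in the mammary fat pad. The mice were female and 6 to 12 weeks old. On day 30 the tumors of 10 mice per genotype were pooled, so each genotype is 1 library and differences between mice cannot be seen.

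Chemokine receptors are G protein-coupled receptors that couple to Gi and guide leukocytes along gradients of chemokines, small secreted proteins named by the spacing of their first cysteines (CC, CXC, CX3C). In tumors they bring in monocytes, neutrophils and T cells and hold them in place, and each leukocyte type carries its own set. Ccr1, Ccr2 and Cx3cr1 are best known from myeloid cells, Cxcr3, Cxcr6 and Ccr8 from activated T cells, Ccr9 from gut-homing lymphocytes and plasmacytoid dendritic cells, and Cxcr4 from nearly all leukocytes.

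After filtering, the WT library held 3565 cells with 26959415 UMIs (unique molecular identifiers, each the tag of 1 captured RNA molecule) and the 6PGDKO library held 2798 cells with 28447905 UMIs. The median cell had 5554 UMIs in WT and 7926 in 6PGDKO, and the libraries shared 0 barcodes. Cells fell into 29 clusters, of which all but 2 were named from marker genes with the receptors left out of the clustering, and every name below stands for cells like that type. Of the 17 named types, 13 had at least 50 cells in both libraries. Naming makes the types, so their markers are not results. By the study's methods CD45+ cells were sorted, while the labels mention a CD11b+ sort as well. Both libraries held many T cells, most of which lack CD11b. Both libraries also held epithelial cells, 25 in WT and 45 in 6PGDKO, which lack CD45. Composition differed, with B cells at 567 in WT and 35 in 6PGDKO, naive-like T cells at 466 and 52, and monocytes at 132 and 328. Pgd itself stood at 114 UMIs per 1000000 UMIs of the same cells (CPM) in WT and 27.4 in 6PGDKO macrophages (log2 ratio −2.05), and at 32.1 and 30.1 CPM in regulatory T cells. Throughout, log2 ratios are 6PGDKO over WT, and all intervals are exact 95% intervals that cover counting error only. There is no replicate check and no test between genotypes, and differences from mouse to mouse, from tumor to tumor and from tag to tag cannot be told apart from the genotype.

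Of the receptor genes 6 lie on mouse chromosome 9, in the RefSeq annotation of GRCm38.p6 (mm10). Cx3cr1 (chr9:120048683-120068296, minus strand) and Ccr8 (chr9:120092133-120094906, plus) are 23836 bases apart. Ccr9 (chr9:123767211-123783457, plus), Cxcr6 (chr9:123806477-123811754, plus), Ccr1 (chr9:123962126-123968692, minus) and Ccr2 (chr9:124101918-124109140, plus) follow further along, with 23019 bases between Ccr9 and Cxcr6. Cxcr4 is at chr1:128588199-128592299 on the minus strand and Cxcr3 at chrX:101731535-101734147 on the minus strand. Neighbours did not share a pattern over cell types. Across the 26 profiles of 13 types in 2 libraries, Pearson's r of log2(CPM + 10) was 0.22 for Cx3cr1 with Ccr8, −0.27 for Ccr9 with Cxcr6 and −0.07 for Ccr1 with Ccr2. These profiles share libraries and cell depth, and r is given as a description.

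The promoters differed in CpG content. In the 300 bases from 250 before to 50 after each RefSeq start (GRCm38.p6), all 8 genes matched, and Cxcr4 held 20 CpG dinucleotides at a GC content of 59.3% while the others held 1 to 5. All 32851 promoters of the table had a median of 7 CpG, and 26.5% of them had at least 20. Stretches of 200 bases are printed because they show this contrast, for the receptor whose lowest type came closest to its highest (Cxcr4), a T cell receptor (Cxcr6) and a myeloid receptor (Ccr1). They run from 250 to 51 bases upstream of the start, 5′ to 3′ on the gene's strand, with CpG in capitals, at chr1:128592350-128592549 (minus), chr9:123806227-123806426 (plus) and chr9:123968743-123968942 (minus).
Cxcr4: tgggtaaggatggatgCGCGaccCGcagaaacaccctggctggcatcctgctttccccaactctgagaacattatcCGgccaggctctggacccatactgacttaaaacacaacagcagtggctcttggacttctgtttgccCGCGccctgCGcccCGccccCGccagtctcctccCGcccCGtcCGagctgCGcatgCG
Cxcr6: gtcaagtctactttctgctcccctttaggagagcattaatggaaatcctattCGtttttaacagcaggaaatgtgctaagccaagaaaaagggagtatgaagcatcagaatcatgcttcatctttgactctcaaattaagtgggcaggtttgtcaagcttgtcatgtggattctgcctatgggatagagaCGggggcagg
Ccr1: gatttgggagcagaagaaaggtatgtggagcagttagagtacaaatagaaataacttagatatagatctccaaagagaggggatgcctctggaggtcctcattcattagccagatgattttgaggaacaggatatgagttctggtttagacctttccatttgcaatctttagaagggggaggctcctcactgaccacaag
The Cxcr4 stretch held 14 CpG, the Cxcr6 stretch 2 and the Ccr1 stretch 0. A set of 7 motifs was searched on both strands of the 300 bases. A motif of NRF1 occurred in Cxcr4 alone among the 8 and in 0.971% of all promoters, and the GC box GGGCGG likewise in Cxcr4 alone and in 35.7% of all. The RUNX motif TGTGGT was found in 4 of 8 (Ccr1, Cxcr3, Cxcr6 and Cx3cr1) and in 16.8% of all promoters. The PU.1 core GAGGAA was found in 2 (Ccr1 and Cxcr3) and in 28.3% of all, and the GATA motif AGATAA in 2 (Ccr2 and Ccr8) and in 11.2%. No member held the T-box motif GGTGTGA or the AP-1 motif TGAGTCA, which 3.98% and 5.2% of all promoters held. A match is a run of letters and not a bound site.

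The receptors fell to 6 leading cell types by the mean of both libraries, and the leading type was the same in each library for 6 of 8, all but Ccr8 and Ccr9. The leading types were neutrophils for Ccr1 and Cxcr4, regulatory T cells for Ccr2 and Ccr8, macrophages for Cx3cr1, CD8 T cells for Cxcr3, CD4 non-regulatory T cells for Cxcr6 and monocytes for Ccr9. Breadth separated them. Cxcr4 in its lowest type reached 8.98% of its highest level, and in 10 of 13 types the lower bounds in both libraries were at least 10% of its highest level. The same count was 8 for Cx3cr1, 6 for Cxcr3 and Cxcr6, 5 for Ccr8, 4 for Ccr2, 3 for Ccr1 and 1 for Ccr9.

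**Figure D1:**
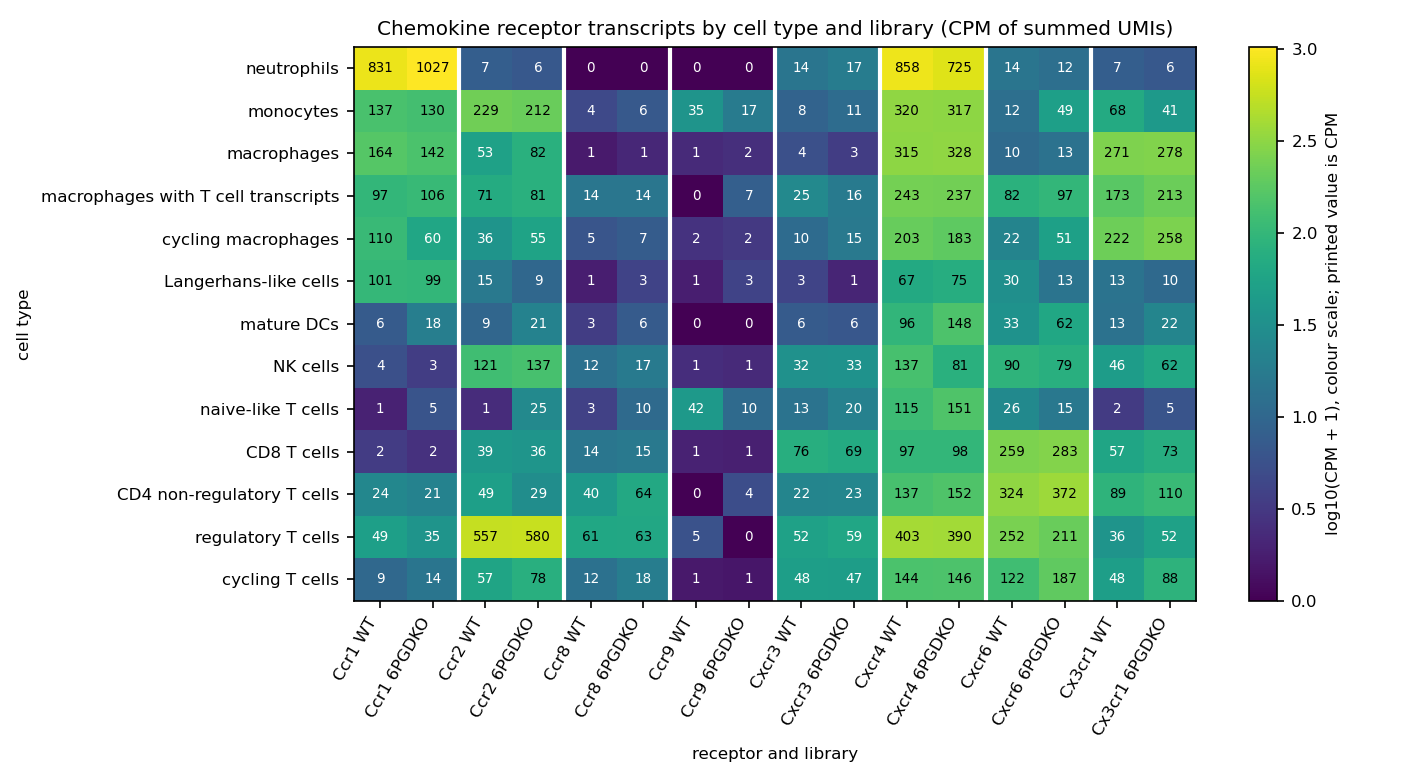
Heat map of the level of each receptor by cell type (rows) and library (columns), where the printed value is CPM of summed UMIs and the colour is log10(CPM + 1). Neutrophils lead for Ccr1 at 831 and 1027 CPM and macrophages for Cx3cr1 at 271 and 278 CPM, while Cxcr4 is present in every row.

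Ccr1, a receptor for Ccl3, Ccl5, Ccl6, Ccl7 and Ccl9, was a neutrophil and macrophage receptor here. Neutrophils held 831 CPM in WT (95% interval 689 to 993) and 1027 in 6PGDKO (881 to 1189), from 121 and 177 UMIs. A Ccr1 UMI was found in 75.9% of WT and 86.1% of 6PGDKO neutrophils, at medians of 2243.5 and 2113 UMIs per cell, against 1.41% and 5.71% of B cells at 3381 and 3074 UMIs. Neutrophils thus stood far above every other type in both libraries although they were the shallowest cells. Macrophages followed at 164 and 142 CPM and monocytes at 137 and 130, with intervals that overlapped in at least 1 library. Below them came macrophages with T cell transcripts (96.9 and 106 CPM), Langerhans-like cells (101 and 98.8) and cycling macrophages (110 and 59.6). Regulatory T cells had 49.0 and 35 CPM, and CD8 T cells were at 2.47 and 1.66 CPM. Among the macrophage clusters the level ranged only from 129 CPM to 188 in WT and from 113 to 161 in 6PGDKO.

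Ccr2, the receptor for Ccl2, Ccl7 and Ccl12 that lets monocytes leave the bone marrow, was highest in regulatory T cells rather than in monocytes. Regulatory T cells held 557 CPM in WT (522 to 593) and 580 in 6PGDKO (544 to 619), with a UMI in 70.0% and 71.3% of cells at medians of 3587 and 3601 UMIs. B cells gave 1.94% and 0%. Monocytes were second at 229 and 212 CPM and NK cells followed at 121 and 137 CPM, each apart from the next type in both libraries. Of all Ccr2 UMIs, regulatory T cells held 43.0% in WT and 30.4% in 6PGDKO, and monocytes 14.0% and 26.7%. Inside the regulatory T cells, the cluster led by Il1rl1, Areg and Klrg1, genes of tissue regulatory T cells, had 734 and 700 CPM. The cluster led by Ctla4 and Foxp3 had 449 and 580 CPM, and a small cluster led by Ermn, of 22 and 21 cells, had 395 and 267. The first of these was highest in both libraries, and against the Ctla4 cluster it stood with intervals apart in WT and overlapping at their edges in 6PGDKO.

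Cx3cr1, the receptor for the membrane-bound chemokine Cx3cl1, was the macrophage receptor. Macrophages held 271 CPM in WT (258 to 284) and 278 in 6PGDKO (264 to 291), and 72.9% and 67.0% of them had a UMI at medians of 12190 and 12520.5, against 1.06% and 2.86% of B cells. Cycling macrophages followed at 222 and 258 CPM, with an interval that overlapped that of macrophages in at least 1 library, and macrophages with T cell transcripts at 173 and 213. Ccr2 and Cx3cr1 differed among the macrophage and monocyte clusters, and neither divided macrophages from monocytes. The macrophage cluster led by Ccl12 and Hes1 had the most Cx3cr1, 371 CPM in WT and 339 in 6PGDKO, and 49.9 and 45.0 CPM of Ccr2. The cluster led by Mmp12 and Mmp13 had 207 and 253 CPM of Cx3cr1 and 23.3 and 28.5 of Ccr2. The monocyte cluster led by Ly6i and Plac8 had 48.9 and 35 CPM of Cx3cr1 with 191 and 192 of Ccr2. The smaller monocyte cluster led by Chil3 had 195 and 107 CPM of Cx3cr1 and 482 and 430 of Ccr2, and the macrophage cluster led by Retnla and Fn1 had 64.9 and 151 CPM of Cx3cr1 and 1095 and 714 of Ccr2, so these clusters held both receptors. The Chil3 cluster was split further by markers. Its 84 and 137 Ccr2 UMIs all lay in the 24 WT and 44 6PGDKO cells with more classical than non-classical monocyte marker UMIs, and the 2 and 8 cells on the other side had 0. Within 1 UMI of that divide lay 1 WT cell and 4 6PGDKO cells.

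**Figure D2:**
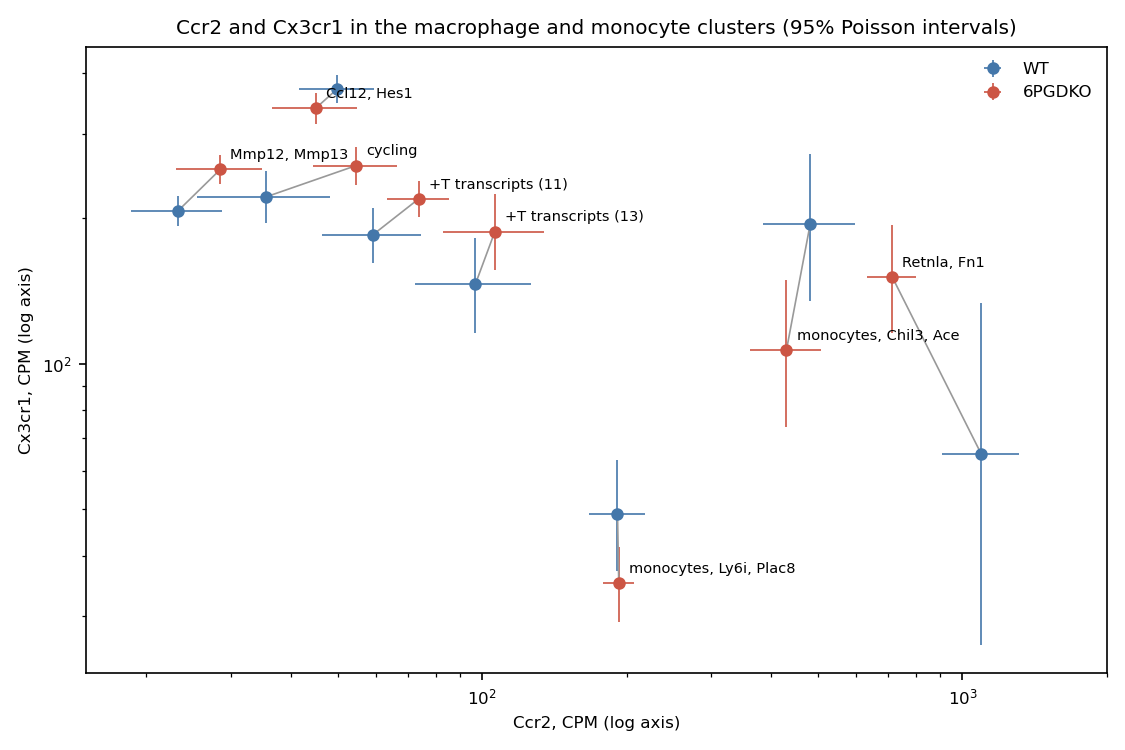
Ccr2 (horizontal, CPM, log axis) against Cx3cr1 (vertical, CPM, log axis) in each macrophage and monocyte cluster, cycling macrophages and macrophages with T cell transcripts included, with 1 point per library joined by a line and 95% Poisson intervals as bars. The Ccl12 and Hes1 cluster lies at 371 and 339 CPM of Cx3cr1 and 49.9 and 45.0 of Ccr2, and the Retnla and Fn1 cluster at 1095 and 714 CPM of Ccr2.

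Cx3cr1 was also present in T cells. CD4 non-regulatory T cells had 89.5 and 110 CPM, CD8 T cells 57.3 and 73.2, and NK cells 45.6 and 62.3. Macrophage transcripts (C1qa, C1qb, C1qc and Adgre1) were found in 180 of 544 WT and 155 of 386 6PGDKO CD8 T cells, so the values were repeated in cells with none of them. In those, CD8 T cells had 55.4 and 54.6 CPM and CD4 non-regulatory T cells 122 and 78.8. For the latter this is a log2 ratio of −0.63 (−1.55 to 0.23), from 38 and 17 UMIs. CD4 non-regulatory T cells with macrophage transcripts gave 1.15 (0.34 to 1.98), from 22 and 36 UMIs. A cluster placed with the CD8 T cells but led by Gzma, Gm156 and Xcl1 had 214 and 169 CPM of Cx3cr1, against 33.8 to 50.2 CPM in WT and 42.1 to 52.6 in 6PGDKO in the other 3 CD8 clusters. This cluster held 47 cells in WT and 62 in 6PGDKO. Of its 10 leading genes 1 was a CD8 marker (Cd8a), and the gamma-delta T cell gene Tcrg-C2 and the NK cell genes Klri2 and Klrc1 were among the others, so its place among the CD8 T cells is uncertain. At a clustering resolution of 0.8 it was not a cluster of its own. Its Cxcr6 level was 569 and 454 CPM and its Cxcr3 level 50.6 and 19.8 CPM.

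Cxcr3, the receptor for the interferon-induced ligands Cxcl9 and Cxcl10, was highest in CD8 T cells. They had 75.8 CPM in WT (66.7 to 85.9) and 69.1 in 6PGDKO (59.0 to 80.4), and a UMI was found in 34.6% and 33.2% of cells at medians of 5805.5 and 5754, against 3.45% and 2.78% of neutrophils at 2243.5 and 2113. With every cell thinned to 2000 UMIs, which 529 of 544 WT and 375 of 386 6PGDKO CD8 T cells reached, the shares were 14.4% and 15.7%. Regulatory T cells (52.5 and 59.0 CPM) and cycling T cells (48.2 and 46.6) followed, and the intervals of these neighbours overlapped in at least 1 library, so the top of this order is not resolved. NK cells had 32.4 and 33.1 CPM. Type 1 dendritic cells, of which there were 39 and 51, had 28.5 and 17.5 CPM. Naive-like T cells had 13.1 and 20.2 CPM and macrophages 4.50 and 2.55.

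Cxcr6, the receptor for Cxcl16 and a gene of tissue-resident T cells, was found in every T cell type and was low in naive-like T cells. CD4 non-regulatory T cells led with 324 CPM in WT (282 to 370) and 372 in 6PGDKO (320 to 431), and 75.0% and 71.6% of them had a UMI at medians of 5742.5 and 5735, against 3.70% and 2.86% of B cells. CD8 T cells had 259 and 283 CPM, and regulatory T cells 252 and 211. CD4 non-regulatory T cells stood apart from CD8 T cells in both libraries, while the intervals of CD8 and regulatory T cells overlapped in at least 1. Cycling T cells had 122 and 187 CPM and NK cells 89.8 and 78.8, whereas naive-like T cells had 26.1 and 15.1. An unnamed cluster led by Il13, Tcrg-C1 and Ltb4r1, of 75 WT and 65 6PGDKO cells, was above all named types at 420 and 422 CPM.

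Ccr8, the receptor for Ccl1 and Ccl8 that marks regulatory T cells in tumors, was at low depth. Regulatory T cells had 61.2 CPM in WT (50.1 to 74.1) and 63.3 in 6PGDKO (51.7 to 76.8), and 21.6% and 21.5% of them had a UMI, against 0.353% and 0% of B cells. CD4 non-regulatory T cells had 40.3 and 64.4 CPM, from 27 and 31 UMIs. The intervals of these types overlapped and their order differed between the libraries. Cycling T cells had 12.3 and 18.1 CPM and CD8 T cells 14.2 and 15.3, and macrophages were at 0.643 and 1.19 CPM.

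Ccr9, the receptor for Ccl25, was rare, with 182 UMIs in WT and 128 in 6PGDKO. Monocytes (35.3 and 17.1 CPM) and naive-like T cells (42.0 and 10.1 CPM, from 90 and 2 UMIs) held most of them. Macrophages, taken as the background, had a UMI in 1.19% and 1.74% of cells. In the monocytes the UMIs lay in very few cells. Of 48 UMIs in WT, 43 were in 4 cells, and of 67 in 6PGDKO, 51 were in 4 cells, each of which carried at least 3 of the plasmacytoid dendritic cell markers Siglech, Cox6a2, Klk1 and Ly6d. This gate was set after the values were seen, and 1 more such cell, in 6PGDKO and outside the monocytes, held 15 UMIs. The remaining 128 and 324 monocytes had 3.76 and 4.13 CPM, so the leading place of monocytes rests on those cells. In naive-like T cells of WT, 72 of the 90 UMIs were in the 186 cells with a Cd8a or Cd8b1 UMI (71.7 CPM) and 2 in the 110 cells with Cd4 but no Cd8 UMI (4.39 CPM). The 6PGDKO library held 11 and 15 such cells, with 1 and 0 UMIs, too few for a comparison.

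Cxcr4, the receptor for Cxcl12 that holds leukocytes in bone marrow and tissue, was found in every named type. Neutrophils had 858 CPM in WT (714 to 1022) and 725 in 6PGDKO (603 to 864), from 125 UMIs in each. Regulatory T cells followed with 403 and 390 CPM, macrophages with 315 and 328 and monocytes with 320 and 317. B cells had 294 and 384 CPM, the latter from 35 cells. At the other end, CD8 T cells had 97.4 and 98.1 CPM and Langerhans-like cells 67.4 and 74.7. A UMI was found in 55.4% of all WT and 61.5% of all 6PGDKO cells, at medians of 5554 and 7926 UMIs. No type that lacks Cxcr4 was at hand for a background share.

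Between the genotypes, the levels in the leading types were close for most receptors. The log2 ratios were 0.31 for Ccr1 in neutrophils (−0.04 to 0.65), 0.06 for Ccr2 (−0.07 to 0.19) and 0.05 for Ccr8 (−0.36 to 0.46) in regulatory T cells, −0.13 for Cxcr3 in CD8 T cells (−0.43 to 0.16), −0.24 for Cxcr4 in neutrophils (−0.61 to 0.13), 0.20 for Cxcr6 in CD4 non-regulatory T cells (−0.09 to 0.49) and 0.04 for Cx3cr1 in macrophages (−0.06 to 0.13). All 7 intervals included 0. Under other settings some did not. Ccr1 in neutrophils was 0.48 (0.14 to 0.83) with TMM scaling, 0.55 (0.21 to 0.89) with DESeq2 size factors and 0.54 (0.13 to 0.95) without the 5 cells richest in it, but −0.15 (−0.61 to 0.32) with cells thinned to 2000 UMIs. With cells named one by one Ccr2 was −0.31 (−0.45 to −0.17), Cxcr3 −0.27 (−0.52 to −0.02) and Cx3cr1 −0.15 (−0.24 to −0.06). Cx3cr1 was −0.13 (−0.24 to −0.01) in cells free of other lineages' UMIs and −0.11 (−0.22 to −0.01) without its 5 richest cells, and Cxcr6 was 0.35 (0.01 to 0.68) in cells with an own tag of at least 80%, a setting chosen after seeing the data. Macrophages without a UMI of Cd3e, Cd3d, Cd3g or Trac gave −0.15 (−0.26 to −0.03) for Cx3cr1. Those with such a UMI gave 0.56 (0.36 to 0.76), from 312 and 596 UMIs. For Cxcr6, CD4 non-regulatory T cells with macrophage transcripts gave 0.49 (0.09 to 0.88), and those without gave −0.16 (−0.62 to 0.29). Differences between these groups of cells were not tested. Ccr9 in monocytes was the exception at −1.04 (−1.60 to −0.48), and with the 4 cells of each library that carry plasmacytoid dendritic cell markers left out, a choice made after seeing the data, the ratio was 0.14 (−1.38 to 1.94). The intervals were narrow for Ccr2 and Cx3cr1 and wide for Ccr1, Ccr8, Cxcr4 and Cxcr6.

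Over all 13 types, 77 of the 104 pairs of receptor and type had at least 20 UMIs over both libraries, and of these 14 were past 1.5-fold higher and 11 past 1.5-fold lower in 6PGDKO. The share of all genes past that fold sets the scale. Over all kept cells 1 of 8 receptors (Ccr9, lower) was past it, as were 13.5% of the 14418 genes tested, 5.21% of them lower. Ccr9 lay at the edge of the fold at −0.59, and was at −0.58 and short of it with a 10% mitochondrial limit. No receptor was past it in CD8 T cells (0 of 6, against 12.4% of genes, 7.7% higher and 4.66% lower), in regulatory T cells (0 of 7, against 13.2% of genes, 7.15% higher and 6.02% lower) or in neutrophils (0 of 2, against 37.8% of genes, 15.8% higher and 22% lower). These include the leading types of 5 receptors. Among regulatory T cells without macrophage transcripts, though, Cx3cr1 was past the fold at 0.99 (0.35 to 1.65), from 33 and 57 UMIs. Those with such transcripts gave −0.14 (−0.95 to 0.67), from 28 and 28. In CD8 T cells with macrophage transcripts Cx3cr1 was also past the fold, at 0.68 (0.22 to 1.14), from 69 and 102 UMIs. CD8 T cells without them gave −0.02 (−0.46 to 0.41), from 117 and 75. In macrophages Ccr2 was higher and Cxcr3 lower, 2 of 6, against 11.7% of genes (6.69% higher, 4.97% lower). In macrophages with T cell transcripts Cxcr3 was lower, 1 of 8, against 15.3% of genes (10% higher, 5.28% lower). In NK cells Cxcr4 was lower, 1 of 6, against 19.4% (10.4% higher, 9.01% lower). With 6 to 8 receptors measured in a type, counts of 1 or 2 cannot be set apart from these shares. In CD4 non-regulatory T cells Ccr8 was higher and Ccr2 lower, 2 of 7, against 21.3% (10.2% higher, 11% lower). In Langerhans-like cells Ccr2 and Cxcr6 were lower, 2 of 5, against 17.2% (8.06% higher, 9.13% lower). In cycling T cells Cxcr6 and Cx3cr1 were higher, 2 of 7, against 16.2% (9.18% higher, 7.02% lower). The same holds for these counts of 2. In naive-like T cells 3 of 4 were past it, against 41.3% of genes (17.5% higher, 23.8% lower). In cycling macrophages 3 of 6 were past it, against 19.3% (10.9% higher, 8.34% lower), and in monocytes 4 of 8, against 17.7% (11.3% higher, 6.39% lower). Mature DCs stood furthest from the background, with 5 of 5 higher, against 20.7% of genes (12.9% higher, 7.8% lower), although over both libraries each of the 5 had most of its UMIs there in cells with a T cell marker UMI, as given below. The median log2 ratio of the measured receptors in mature DCs was 0.90, against 0.03 over all genes tested there.

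**Figure D3:**
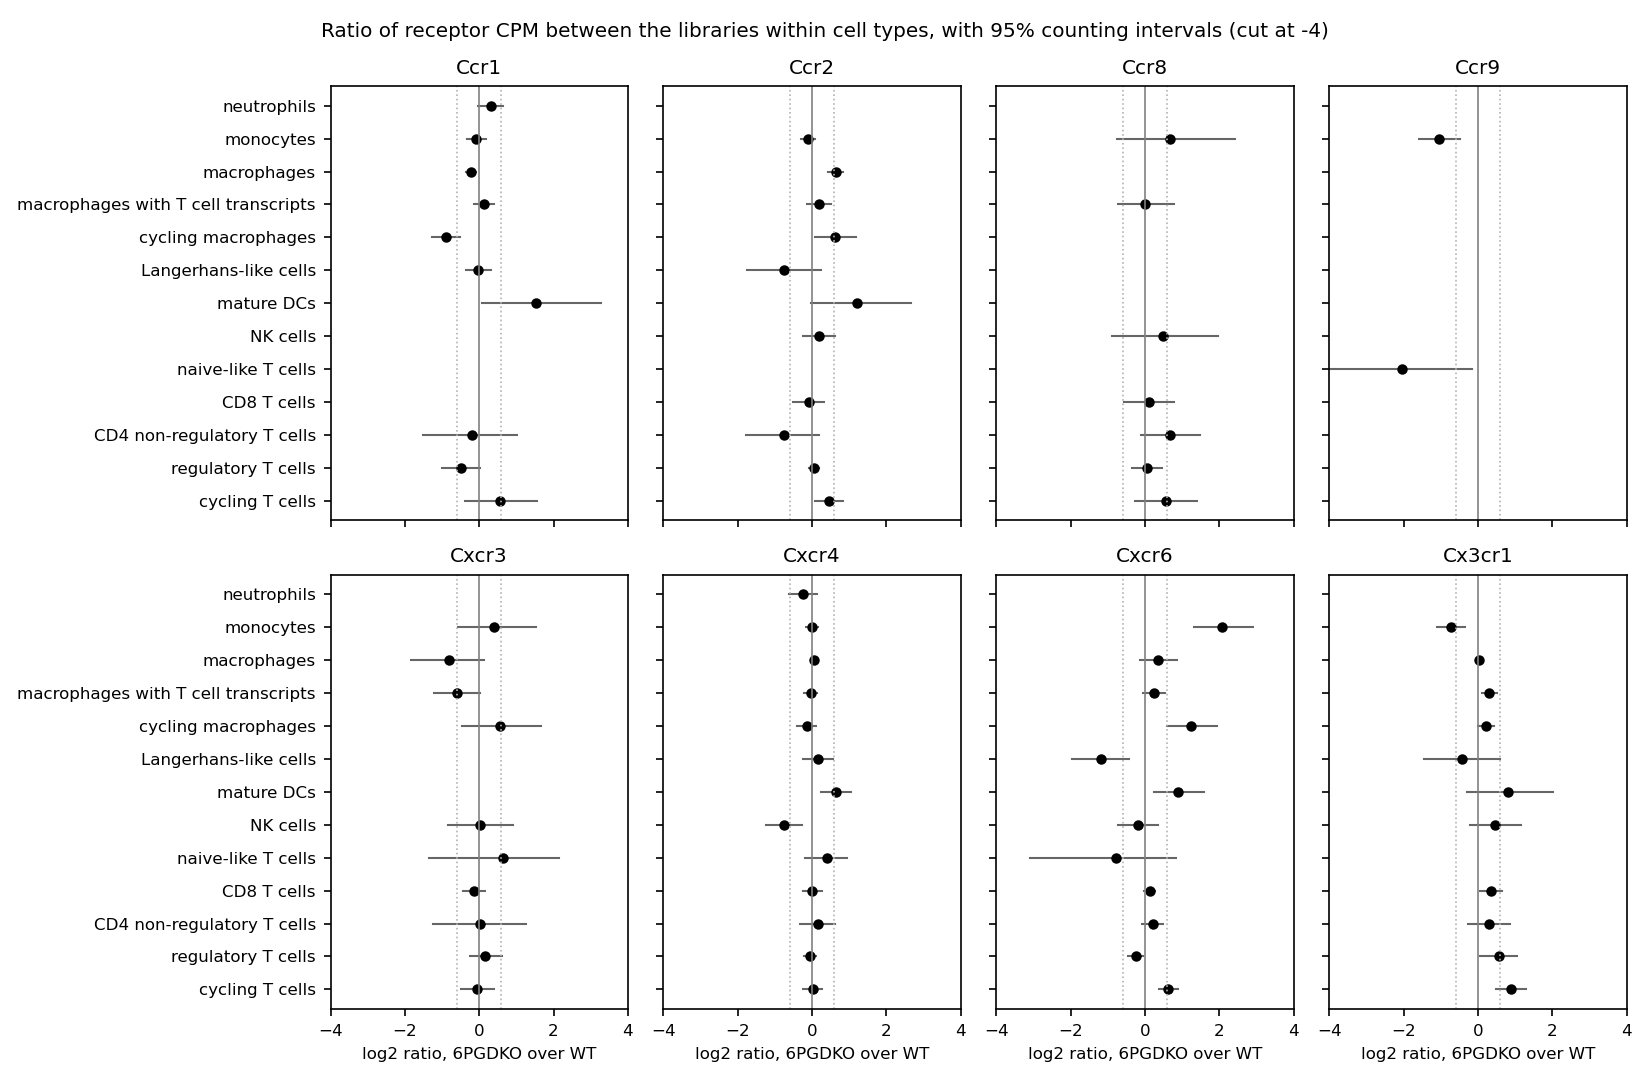
Log2 ratio of CPM, 6PGDKO over WT, for each receptor (panels) and each type (rows) with at least 20 UMIs over both libraries, with 95% counting intervals as lines (one is clipped at the left edge) and dotted lines at 1.5-fold. Of the 77 pairs, 14 lie beyond the upper line and 11 beyond the lower, and Cxcr6 in monocytes lies highest at 2.06.

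Ccr2 in macrophages was 52.5 CPM in WT (47.0 to 58.5) and 81.6 in 6PGDKO (74.5 to 89.3), a log2 ratio of 0.64 (0.43 to 0.84). Of these UMIs 118 of 327 in WT and 288 of 480 in 6PGDKO lay in 1 cluster of macrophages, led by Retnla, Fn1, Lyz1 and Ccl6. This cluster held 15 cells in WT and 52 in 6PGDKO, and its Ccr2 level was 1095 CPM in WT and 714 in 6PGDKO. In the other macrophages Ccr2 was 34.2 CPM in WT and 35.1 in 6PGDKO, a log2 ratio of 0.04 (−0.25 to 0.33). Per cluster the Ccr2 log2 ratio was 0.29 in the Mmp12 cluster, −0.15 in the Ccl12 cluster and −0.62 in the Retnla cluster, where the interval of the Mmp12 cluster (−0.15 to 0.73) and that of the Ccl12 cluster (−0.54 to 0.24) included 0.

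Cxcr6 in monocytes was 11.8 CPM in WT (16 UMIs) and 49.1 in 6PGDKO (192 UMIs), a log2 ratio of 2.06 (1.32 to 2.90), the highest of the 77 pairs. The T cell transcripts Cd3e, Cd3d, Cd3g and Trac moved with it, summing to 270 CPM in WT and 544 in 6PGDKO monocytes. In monocytes with none of these, Cxcr6 had 0 UMIs in 96 WT and 0 in 201 6PGDKO cells, which allows up to 3.41 and 1.67 CPM at 3 counts. In monocytes with at least 1 of them it had 16 UMIs in 36 WT cells and 192 in 127 6PGDKO cells, 33.3 and 90.5 CPM, a log2 ratio of 1.44 (0.70 to 2.28). The same held for the other myeloid types. Macrophages without a T cell marker UMI had 4 and 2 Cxcr6 UMIs in 402 and 341 cells, against 58 and 73 in the 104 and 119 cells with at least 1. Cycling macrophages without had 0 and 0 against 25 and 93, Langerhans-like cells 0 and 0 against 39 and 26, and mature DCs 2 and 1 against 24 and 77. Cells with a T cell marker UMI were deeper, with medians of 12990 and 15719 UMIs in monocytes against 7739 and 7829. The part of doublets and of free RNA in this was not tested.

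**Figure D4:**
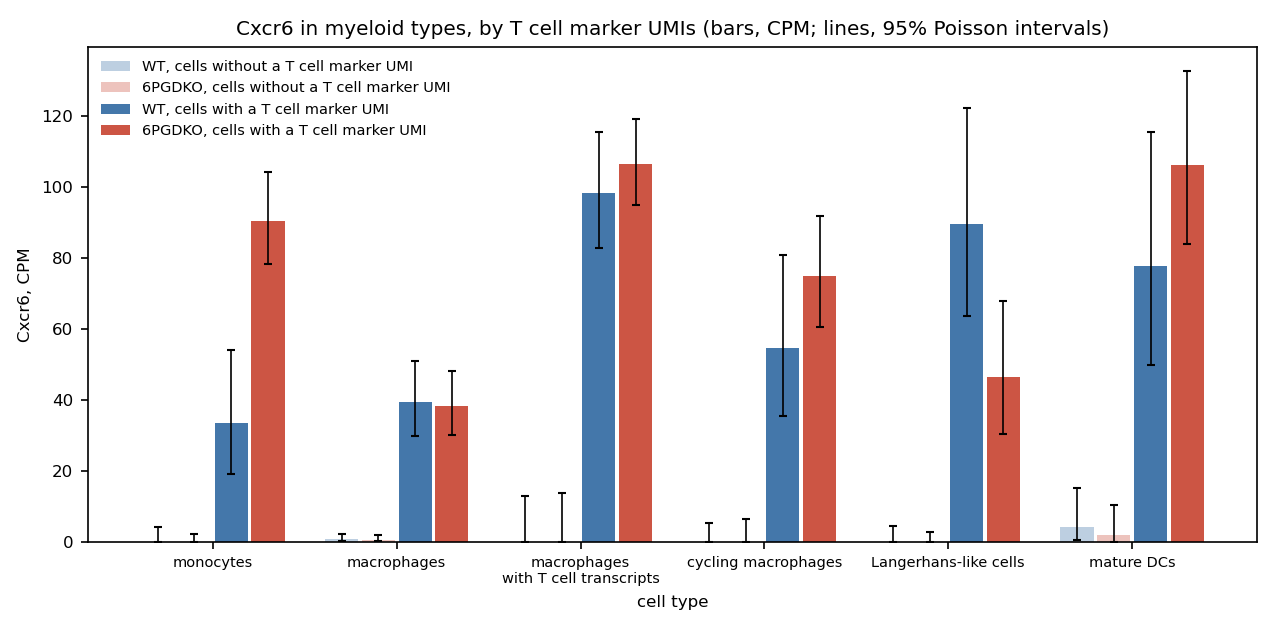
Cxcr6 level (bars, CPM) in myeloid types and mature DCs, in cells without and with a UMI of Cd3e, Cd3d, Cd3g or Trac, for both libraries, with 95% Poisson intervals as lines. Monocytes without such a UMI are at 0 in both libraries, and those with at least 1 are at 33.3 and 90.5 CPM.

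Cx3cr1 in monocytes went the other way, at 67.6 CPM in WT (92 UMIs) and 40.9 in 6PGDKO (160 UMIs), a log2 ratio of −0.73 (−1.10 to −0.34). In monocytes without T cell marker UMIs it was −1.17 (−1.67 to −0.67), from 73 and 66 UMIs. Monocytes with at least 1 such UMI gave 0.16 (−0.56 to 0.96) from 19 and 94, an interval that included 0, and the difference between these cells was not tested. Both monocyte clusters had a lower level in 6PGDKO, by −0.48 in the Ly6i cluster and −0.87 in the Chil3 cluster. The macrophage transcripts C1qa, C1qb, C1qc and Adgre1 summed to 3220 CPM in WT and 3272 in 6PGDKO monocytes. In cycling T cells Cx3cr1 was higher in 6PGDKO, 87.5 against 47.6 CPM, a log2 ratio of 0.88 (0.49 to 1.28). Without the cells that carry macrophage transcripts it was 94.5 against 34.4 CPM, from 83 and 34 UMIs, a log2 ratio of 1.46 (0.87 to 2.08). With cells thinned to 2000 UMIs, 11.5% of WT and 12.1% of 6PGDKO cycling T cells had a UMI, and unthinned 26.3% and 47.1%. Cxcr6 was higher in the same cells, 187 against 122 CPM, a log2 ratio of 0.62 (0.37 to 0.87), and 0.54 (0.21 to 0.87), short of the fold, in those without macrophage transcripts.

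Cxcr4 in NK cells was 137 CPM in WT (93 UMIs) and 81.4 in 6PGDKO (64 UMIs), a log2 ratio of −0.75 (−1.23 to −0.28). The share of NK cells with a UMI was 44.7% (33.9 to 55.9) and 28.4% (20.5 to 37.6), at medians of 7407 and 6222 UMIs, and 16.5% and 12.6% with cells thinned to 2000 UMIs. The own tag, described below, held under 80% of tag UMIs in 36.5% of WT and 3.45% of 6PGDKO NK cells, and in the NK cells above that limit the ratio was −0.56 (−1.10 to −0.02), short of the fold. That limit was chosen after seeing the data. B cell marker transcripts in NK cells summed to 88.3 CPM in WT and 3.81 in 6PGDKO. In NK cells without a B cell marker UMI the Cxcr4 ratio was −0.85 (−1.35 to −0.36), past the fold. The part of B cell RNA in the Cxcr4 value was not tested further. Mature DCs had 95.7 and 148 CPM, a log2 ratio of 0.63 (0.24 to 1.04), and 0.66 (0.10 to 1.24) in those without T cell marker UMIs, which held 42 of 75 and 75 of 187 Cxcr4 UMIs. Of the other 4 receptors in mature DCs, Ccr1 had 5 and 23 UMIs (log2 ratio 1.52, 0.09 to 3.27), Ccr2 7 and 26 (1.21, −0.03 to 2.66), Cx3cr1 10 and 28 (0.80, −0.29 to 2.01) and Cxcr6 26 and 78 (0.90, 0.24 to 1.6). Over both libraries most of these UMIs were in the 20 and 39 mature DCs with a T cell marker UMI, namely 2 and 19 for Ccr1, 7 and 26 for Ccr2, 8 and 28 for Cx3cr1 and 24 and 77 for Cxcr6. Without those cells the mature DCs thus had too few UMIs of these 4 receptors to compare. Within the mature DCs with a T cell marker UMI, Ccr1 was at 2.02 (−0.03 to 5.17) and Ccr2 at 0.66 (−0.58 to 2.11). Cx3cr1 was at 0.58 (−0.59 to 1.92) there, Cxcr6 at 0.45 (−0.22 to 1.18) and Cxcr4 at 0.53 (−0.04 to 1.14). All of these intervals included 0, and Cx3cr1, Cxcr6 and Cxcr4 were short of the fold. In the remaining types, Ccr1 was lower in cycling macrophages, 110 CPM in WT and 59.6 in 6PGDKO (log2 ratio −0.88, −1.27 to −0.50), and at −0.94 in those without T cell marker UMIs. Cycling macrophages with such a UMI gave −0.50 (−1.11 to 0.12), short of the fold. In cycling macrophages the macrophage transcripts summed to 10833 CPM in WT and 7305 in 6PGDKO, and T cell transcripts to 373 and 791. Their part in the Ccr1 value was not tested. Cxcr6 in Langerhans-like cells was 30.2 and 13.3 CPM (−1.18, −1.96 to −0.43), all of it in cells with a T cell marker UMI.

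Cxcr6 in cycling macrophages had 25 and 93 UMIs, 21.7 and 50.9 CPM, a log2 ratio of 1.23 (0.58 to 1.93). All of these UMIs lay in cells with a T cell marker UMI, within which the ratio was 0.45 (−0.20 to 1.15). Ccr2 there had 41 and 100 UMIs, 35.5 and 54.7 CPM, a log2 ratio of 0.62 (0.08 to 1.18). Cells without a T cell marker UMI gave −0.42 (−1.39 to 0.51) from 27 and 17 UMIs, so the higher level was not found in them. Cells with such a UMI gave 1.13 (0.30 to 2.06), from 14 and 83 UMIs. The remaining pairs past 1.5-fold had fewer UMIs. CD4 non-regulatory T cells had 33 and 14 UMIs of Ccr2 (log2 ratio −0.76, −1.77 to 0.18), with −2.28 (−4.66 to −0.53; 21 and 3 UMIs) in cells without macrophage transcripts and 0.31 (−1.01 to 1.62; 12 and 11 UMIs) in cells with them. They had 27 and 31 UMIs of Ccr8 (0.68, −0.11 to 1.48). Cxcr3 had 28 and 15 UMIs in macrophages (−0.82, −1.83 to 0.14), of which 20 and 13 lay in cells with a T cell marker UMI. In macrophages with T cell transcripts it had 44 and 51 (−0.60, −1.21 to 0.01), all in such cells. Ccr2 in Langerhans-like cells had 20 and 18 UMIs (−0.75, −1.75 to 0.24). Of these, 17 and 18 lay in cells with a T cell marker UMI, within which the ratio was −0.28 and short of the fold. Ccr8 in monocytes had 5 and 23 UMIs (0.68, −0.75 to 2.43), all in such cells, within which the ratio was 0.06. In naive-like T cells Cxcr6 had 56 and 3 UMIs (−0.79, −3.11 to 0.83), Cxcr3 28 and 4 (0.63, −1.34 to 2.14) and Ccr9 90 and 2 (−2.06, −5.12 to −0.16). Of the ratios over whole types in this group, the interval of Ccr9 excluded 0 and the others included it. The naive-like T cells of 6PGDKO numbered 52, with 198070 UMIs in all. The 27 pairs below 20 UMIs included Ccr8 and Ccr9 in neutrophils, at 0 UMIs in both libraries.

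Over the whole libraries the receptors combine level and composition. Ccr2 was 82.3 CPM in WT and 109 in 6PGDKO, a log2 ratio of 0.41 (0.33 to 0.49). Holding each cluster at its WT level and letting only the cluster shares of UMIs differ gave 0.40, which left 0.01 within clusters. For Ccr1 the ratio was 0.19, composition alone gave 0.32, and −0.13 was left within clusters. Cx3cr1 was at 0.26, of which composition alone gave 0.11. Cxcr4 was at 0.03 with 0.02 from composition, and Cxcr6 at 0.07 with −0.07. The ratio of Cxcr3 was −0.25, of which −0.13 came from composition. For Ccr8 and Ccr9 composition gave 0.01 and 0.03, while the observed ratios were 0.27 and −0.59. The composition value of Ccr9 depends on few cells. In WT monocytes 43 of 48 Ccr9 UMIs lay in the cells with plasmacytoid dendritic cell markers. Monocytes held 5.05% of UMIs in WT and 13.8% in 6PGDKO, and naive-like T cells, the other main holder of Ccr9, 7.95% and 0.696%. A composition value without those few monocytes was not computed. The cell types that differed most in number differed in these receptors. Monocytes, more numerous in 6PGDKO, had 229 and 212 CPM of Ccr2, and B cells, fewer in 6PGDKO, had 9.23 CPM of it in WT.

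**Figure D5:**
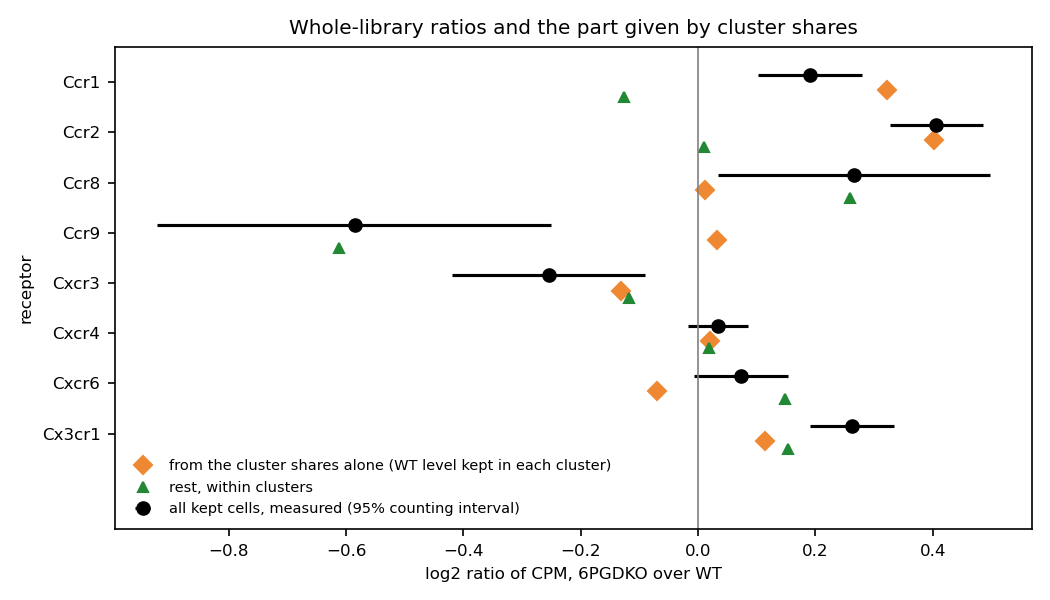
Log2 ratio of CPM, 6PGDKO over WT, of each receptor over all kept cells (circles with 95% counting intervals), the ratio from the cluster shares alone at WT cluster levels (diamonds) and the rest within clusters (triangles). For Ccr2 the measured ratio and that from shares are 0.41 and 0.40, and for Ccr9 they are −0.59 and 0.03. The Ccr9 value from shares depends on a few WT monocytes with plasmacytoid dendritic cell markers.

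Tags bear on these whole-library values. Both suspensions were labelled with their own oligonucleotide and loaded together. In the WT library the own tag held under 80% of tag UMIs in 38.6% of B cells, 37.7% of CD8 T cells and 33.3% of naive-like T cells but in 0.593% of macrophages. In 6PGDKO the shares in the same types were 8.57%, 6.48%, 11.5% and 0%. Over all cells the share was 21.2% in WT and 1.82% in 6PGDKO. Restricting both libraries to cells above 80%, chosen after seeing the data, moved the whole-library ratio of Ccr1 from 0.19 to −0.01, of Ccr2 from 0.41 to 0.27, of Cx3cr1 from 0.26 to 0.10, of Cxcr3 from −0.25 to −0.07 and of Ccr9 from −0.59 to −0.40, which is short of 1.5-fold. Cxcr4 went from 0.03 to −0.01 and Ccr8 from 0.27 to 0.30. Cxcr6 went from 0.07 to 0.14 (0.06 to 0.23), an interval that no longer included 0.

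The ligands were measured in the same way. Of the 15 genes listed as ligands of the 8 receptors, 6 were past 1.5-fold higher in 6PGDKO over all cells (Ccl1, Ccl2, Ccl3, Ccl6, Ccl7 and Ccl9) and 0 were lower, where 8.33% and 5.21% of all genes were. Ccl1 was at 0.90 there, and at 0.61 without the 5 cells of each library that held most of it. In macrophages 6 of 13 measured ligands were higher and 1 lower, where 6.69% and 4.97% of genes were. Ccl2, a ligand of Ccr2, was 212 CPM in WT and 374 in 6PGDKO macrophages (log2 ratio 0.82, 0.72 to 0.92). Ccl7, a ligand of Ccr1 and Ccr2, was 49.6 and 124 CPM (1.32, 1.12 to 1.51). The Ccr1 ligands Ccl6 (1.06), Ccl9 (0.84) and Ccl3 (0.62) were higher as well, and Cxcl10 was at 0.61. Cxcl9 was lower, 929 against 424 CPM (−1.13, −1.20 to −1.06), although it is a ligand of the same receptor, Cxcr3, as Cxcl10. The Retnla cluster, larger in 6PGDKO, had Ccl6, Ccl9 and Ccl7 among its leading genes. Without this cluster, a choice made after seeing the data, 3 of 13 ligands were higher in macrophages (Ccl7 at 1.12, Ccl3 at 0.64 and Cxcl10 at 0.60) and 2 lower (Cxcl9 at −1.05 and Ccl8 at −0.71). Ccl6, Ccl9 and Ccl2 were then at 0.24, 0.47 and 0.53, short of the fold. In monocytes 6 of 13 were higher and 1 lower, where 11.3% and 6.39% of genes were. Among the higher were Ccl5 at 365 and 766 CPM and Ccl2 at 109 and 205 CPM. The T cell transcripts given above for monocytes moved in the same direction as Ccl5, which CD8 T cells held at 5030 and 4917 CPM. Their part in the Ccl5 value of monocytes was not tested.

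Some ligands were highest in the leading type of their receptor and others were not. Neutrophils, the leading type of Ccr1, were also highest for its ligands Ccl3 (3831 and 2250 CPM) and Ccl6 (789 and 1038 CPM). Ccl5 was highest in CD8 T cells and NK cells (4386 and 3952 CPM). Cxcl16, the ligand of Cxcr6, was highest in mature DCs (1061 and 1042 CPM) and macrophages (998 and 948), which held next to no Cxcr6 outside cells with T cell transcripts. Ccl1, the ligand of Ccr8, was highest in CD4 non-regulatory T cells (1459 and 1590 CPM), the second type for Ccr8 itself. Ccl1 in cycling T cells had 7 UMIs in WT and 941 in 6PGDKO, of which 898 were in 5 cells. Neutrophils had 1112 CPM of Cxcl10 in WT and 191 in 6PGDKO (log2 ratio −2.54, −3.13 to −1.99). Cxcl12, the ligand of Cxcr4, had 11 and 9 UMIs in all, and Cx3cl1 151 and 196. Of the latter, 91 and 94 were in the epithelial cells (161 and 88.6 CPM), and among the 13 compared types mature DCs were highest at 21.7 and 31.7 CPM. Ccl25 had 224 and 200 UMIs.

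Of the 14 other chemokine receptor genes, 10 had at least 20 UMIs over all cells. Ccrl2, Ccr7 and Xcr1 had the most. Ccr7, which guides dendritic cells and T cells to lymph nodes, was 2245 and 2369 CPM in mature DCs. It was past the fold higher in Langerhans-like cells (6 and 98 UMIs, log2 ratio 3.43, 2.26 to 4.91), cycling macrophages (1.35, 0.91 to 1.81) and cycling T cells (1.08, 0.85 to 1.30), and lower in naive-like T cells (−0.60, −1.10 to −0.15) and NK cells (−0.63, −1.52 to 0.24). T cell transcripts summed to 373 CPM in WT and 791 in 6PGDKO cycling macrophages, and to 323 and 179 in Langerhans-like cells. Their part in the Ccr7 values was not tested. Cxcr2, a neutrophil receptor, was 281 and 458 CPM in neutrophils (0.70, 0.14 to 1.28). Xcr1 was 362 and 378 CPM in type 1 dendritic cells, their marker. Ccrl2, a receptor that binds chemerin without signalling, had 3982 and 2854 CPM in neutrophils. Of the 10 genes, 4 were past 1.5-fold higher over all cells (Ccr3, Ccr4, Ccr10 and Xcr1) and 2 lower, Cxcr5 at −1.67 (−2.15 to −1.21) and Ccr6 at −0.96 (−1.24 to −0.69), where 8.33% and 5.21% of all genes were. Cxcr5 is the B cell follicle receptor, and B cells were 15.9% of WT and 1.25% of 6PGDKO cells. Of the 28 genes listed for receptor signalling and desensitisation, all measured over all cells, 1 was past 1.5-fold, Rgs18 at 0.63 (0.40 to 0.86), and 0 were lower, where 8.33% of all genes were higher and 5.21% lower. Rgs1, Rgs2 and Gnai2 had the most UMIs and stood at 0.19, 0.15 and 0.21. Rgs16, which shortens Gi signals, was past the fold higher in 6 types, at 2.06 in cycling macrophages, 1.67 in monocytes, 1.31 in cycling T cells, 0.93 in macrophages, 0.83 in CD8 T cells and 0.65 in Langerhans-like cells, and lower in naive-like T cells at −0.73. T cell transcripts were higher in 6PGDKO in cycling macrophages, as given above, and in monocytes (270 and 544 CPM). They were at 127 and 145 CPM in macrophages and lower in Langerhans-like cells. Their part in the Rgs16 values was not tested. In macrophages 4 of 28 signalling genes were past the fold and all were higher, where 6.69% of all genes were higher and 4.97% lower.

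The genes whose profile over cell types was most like each receptor's were, with Pearson's r over the 26 profiles, Cd33 for Ccr1 (0.96), Ndfip1 for Ccr8 (0.96), Pdcd1 for Cxcr6 (0.93), Sh2d2a for Cxcr3 (0.92), AW011738 for Cxcr4 (0.90), Pmepa1 for Cx3cr1 (0.88), Wls for Ccr2 (0.80) and Mycbp2 for Ccr9 (0.73). Pdcd1 encodes the checkpoint receptor PD-1, and Tnfrsf18, next in rank for Ccr8 (0.94), encodes the regulatory T cell receptor GITR. Among the members the closest were Ccr8 with Cxcr6 (0.87), Cxcr3 with Cxcr6 (0.78) and Ccr1 with Cxcr4 (0.75), and the least alike Ccr1 with Cxcr6 (−0.54). These are descriptions over types that share 2 libraries.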

How the data were processed

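The authors deposited, for each library, unnormalized UMI counts per gene and cell barcode from Cell Ranger 6.1.2 on mm10, as their processing notes name them, with 3728 barcodes in WT and 3014 in 6PGDKO. The tables also hold counts of the oligonucleotide tags, which were used only to check purity. A cell was kept if it had 500 to 7500 genes and no more than 15% of its UMIs from mitochondrial genes. Clustering used Seurat 5.3.0 in R 4.3.3 on both libraries merged, with 2000 variable genes, 30 components, 20 neighbours and resolution 1.6, and chemokine receptor genes left out. Clusters were named from fixed marker lists, with at least 3 markers detected in 25% of cells, except for the cycling ones. The cycling T cell and cycling macrophage clusters had 0 markers of their own on this count. Birc5 and Top2a were among their leading genes. The cycling macrophage cluster also had 7 T cell markers detected. The unnamed clusters had 4 and 3 markers detected, so meeting this count alone did not give a name. No doublet caller was run. UMIs were summed per library and type and scaled to CPM. With 1 library per genotype no test was possible. Ratios carry exact conditional 95% intervals, CPM exact Poisson intervals and shares Clopper-Pearson intervals (scipy 1.17.1), which treat UMIs as independent, so they are too narrow where few cells hold most UMIs. The ratio intervals were tested on simulated data, but no outcome is given here, so no conclusion is drawn from it. A gene was compared in a type only if both libraries together gave it 20 UMIs or more. Profiles used genes with at least 200 UMIs. All members are named in each type where measured. Of the other lists, the rule names the 3 genes with most UMIs and those past 1.5-fold in the types described. The members, gene lists and gates were chosen with earlier results of these data known. Positions and promoters came from the RefSeq tables of GRCm38.p6. Alternatives were resolutions of 0.8 and 2.4, receptor genes kept in the clustering, naming of single cells, cells free of other lineages' UMIs, a 10% mitochondrial limit, thinning to 2000 UMIs, edgeR 4.0.16 and DESeq2 1.42.0 scaling factors, and leaving out the 5 cells with most UMIs.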

Additional observations from a re-analysis of the deposited data

Results flagged for a closer look

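Receptors that stood higher in 6PGDKO in one cell type and lower in another, with counting intervals on either side of 0, were looked at again. In each case the difference between the types was not tested, since each genotype is 1 library. Ccr1 had a log2 ratio of 1.52 in mature DCs, from 5 and 23 UMIs, and −0.88 in cycling macrophages. Cxcr4 was at 0.63 in mature DCs and at −0.75 in NK cells. Cxcr6 was at 2.06 in monocytes and at −1.18 in Langerhans-like cells, and in both types all of its UMIs lay in cells with a T cell marker UMI. Cx3cr1 was at 0.88 in cycling T cells and at −0.73 in monocytes.

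Cells outside the 13 compared types also held receptor signal. Epithelial cells, which are not leukocytes, had 28.4 CPM of Cxcr4 in WT (25 cells) and 123 CPM in 6PGDKO (45 cells), where 50% of the 130 UMIs were in 5 cells. T cell transcripts were present in them at 576 and 383 CPM, and their part in the Cxcr4 value was not tested. Type 1 dendritic cells had 0 Cx3cr1 UMIs in 39 WT cells, which allows up to 5.35 CPM at 3 counts, and 27.4 CPM in 51 6PGDKO cells, where 80% of the 25 UMIs were in 5 cells. Macrophage transcripts in these cells summed to 89.2 CPM in WT and 256 in 6PGDKO and T cell transcripts to 198 and 445 CPM, and their part in the Cx3cr1 value was not tested. The unnamed cluster led by Il13 had 420 CPM of Cxcr6 in WT and 422 CPM in 6PGDKO, with Cxcr4 at 253 and 132 CPM.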

How the results depend on the processing

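Of 148 alternative values, 114 stayed within the counting error of the reported value (a count within 1.5 times it). Of the 137 that are log2 ratios, 22 changed sign, and 4 of these started from a ratio past 1.5-fold. No paired analysis was possible because each genotype is 1 library. Leaving out shared barcodes changed nothing, as 0 were shared. Thinning to 2000 UMIs kept 36 and 44 neutrophils, so they fell below 50 cells. It kept the leading type of 4 of the 8 receptors, and moved the ratios in the leading types to −0.15 (Ccr1), 0.28 (Cxcr3), 0.29 (Cxcr4), −0.16 (Cxcr6) and 0.14 (Cx3cr1), and over all cells to 0.50 (Ccr1), 0.66 (Ccr2), −0.92 (Ccr9), 0.25 (Cxcr3) and 0.54 (Cx3cr1). Naming cells one by one gave −0.31 for Ccr2 in regulatory T cells, −0.15 for Cx3cr1 in macrophages and 3.65 for Ccr9 in monocytes, from 1 and 24 UMIs. Ccr9 also reversed without the 5 cells richest in it (0.44) and without cells carrying plasmacytoid dendritic cell markers (0.14). Cx3cr1 in macrophages was −0.13 in cells free of other lineages' UMIs and −0.11 without its 5 richest cells. Taking only cells free of other lineages' UMIs left 48 WT neutrophils, below 50 cells. In that setting macrophages led for Ccr1 and regulatory T cells for Cxcr4, in place of neutrophils. TMM scaling gave −0.0384 for Cxcr4 and 0.19 for Cx3cr1 over all cells, and DESeq2 factors −0.0210 for Cxcr4. In neutrophils the 2 scalings shifted all ratios by 0.18 and 0.24. Why these values moved was not tested, apart from the smaller numbers of cells and UMIs given.

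Alternatives chosen after seeing the data gave, with an own tag of 80% or more, −0.00655 (Ccr1), 0.27 (Ccr2), −0.0711 (Cxcr3) and 0.10 (Cx3cr1) over all cells. Cxcr6 in mature DCs without T cell marker UMIs was −1.18, from 2 and 1 UMIs. Ccr2 in macrophages without the Retnla cluster was 0.04. With at least 50 UMIs per gene the share of genes past 1.5-fold was 10.7% in CD4 non-regulatory T cells, 6.5% in CD8 T cells, 7.32% in macrophages, 11.4% in monocytes and 6.30% in regulatory T cells. Depth limits Ccr8, Ccr9 and Cxcr3 most, with 276 to 648 UMIs in WT for Ccr8 and Cxcr3 and 182 for Ccr9.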

Other observations

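The number of the 8 receptors found per cell differed between cell types. The median number with a UMI was 1 in WT and 2 in 6PGDKO over all cells, at median depths of 5554 and 7926 UMIs. It was 3 and 2 in macrophages and 2 and 2 in regulatory T cells. A share of 47.2% of WT and 48.1% of 6PGDKO naive-like T cells had none of the 8. In regulatory T cells a Ccr8 UMI was found in 21.8% of WT and 22.1% of 6PGDKO cells with Ccr2 and in 21.2% and 20.2% of those without, shares that were close in both libraries. In macrophages of 6PGDKO, Cx3cr1 was found in 52.1% of cells with Ccr2 and in 72.0% of cells without, whereas in WT it was 74.7% and 72.6%. The cells with Ccr2 came from clusters in different proportions, since the Retnla cluster held 118 of 327 Ccr2 UMIs of WT macrophages in 15 cells and 288 of 480 in 52 cells in 6PGDKO, with 64.9 and 151 CPM of Cx3cr1. In CD8 T cells Cxcr6 was found in 61.7% and 63.3% of cells with Cxcr3 and in 61.2% and 66.3% of cells without. These shares depend on depth and were not tested.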
